A study of Mus musculus with 18 samples.

Results

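The genes described here are 10 mucus and goblet cell genes, *Muc2*, *Clca1*, *Fcgbp*, *Tff3*, *Agr2*, *Spdef*, *Zg16*, *Muc1*, *Muc4* and *Muc13*. They were chosen by symbol, with no measured value in the rule, though earlier results of these data were known. All 10 were found among the 47729 genes of the count table. RNA-Seq was performed on the colon of 9 mice in 3 groups of 3. Naive WT mice (mice 1, 2 and 3) were labelled as controls and carried no transgene. The group called WT CAC, for colitis-associated cancer (mice 4, 5 and 6), received the carcinogen azoxymethane (AOM) at 10 mg/kg together with 3 rounds of dextran sulfate sodium (DSS) at 2.5%, which injures the colonic lining. Mice 7, 8 and 9, named *Cldn2*TG CAC, underwent that AOM-DSS treatment too and carried a claudin-2 transgene driven by the villin promoter, which is active in intestinal epithelium. Both genotypes had a C57BL/6 background, and the methods describe littermate controls matched for age and sex, with no ages given in the sources used here. The protocol text deposited with the samples names AOM and DSS for the controls too. An untreated *Cldn2*TG group was not analysed here, so the transgene and the treatment cannot be told apart in *Cldn2*TG CAC against naive WT.

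Goblet cells are the secretory cells of the intestinal epithelium that store mucins in granules and release them as mucus. In the colon the secreted gel is built on the mucin Muc2, which is folded in the endoplasmic reticulum, heavily O-glycosylated in the Golgi, packed with partner proteins such as Fcgbp, Clca1 and Zg16, and expanded after release. A separate set of transmembrane mucins, here *Muc1*, *Muc4* and *Muc13*, stays anchored in the cell surface of epithelial cells, including cells that are not goblet cells.

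The 9 libraries held 14142711 to 22262546 reads assigned to genes, and values per mouse are given as CPM, read counts scaled to a common library size with TMM factors. *Cldn2*, the gene carried by the transgene, stood at 191, 258 and 243 CPM in naive WT, at 122, 136 and 134 CPM in WT CAC and at 209, 217 and 249 CPM in *Cldn2*TG CAC. It was thus higher in *Cldn2*TG CAC than in WT CAC (log2 fold change 0.78, SE 0.12, edgeR adjusted p = 0.0103), a call lost without mouse 8 (adjusted p = 0.0580) or mouse 9 (0.0597), while the *Cldn2*TG CAC and naive WT mice overlapped. The tissue label was checked with *Hoxb13*, a gene of the distal colon, which was at 481 to 792 CPM in every mouse. The 6 distal Hox genes listed summed to between 801 CPM (mouse 6) and 1121 CPM (mouse 4). A list of 7 stomach and pancreas genes had a summed level of 0 to 1.65 CPM, and 1 of them had no read in any mouse. Naive WT mouse 1 carried *Xist* at 214 CPM and 4 Y-linked genes at 0.497 CPM in sum, whereas mice 2 to 9 showed 0 to 0.204 CPM of *Xist* and 146 to 190 CPM of the Y-linked genes. By these genes mouse 1 reads as female and mice 2 to 9 as male, so sex was not balanced in comparisons with naive WT. Which of these mice shared a litter or cage is not given in the sources used here. The p-values set group differences against the spread between these mice and treat the mice as independent.

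Compared per kb of annotated exon, which allows levels to be set between genes, the members covered a wide range. In naive WT mice *Zg16*, a lectin of the mucus layer, had the highest mean level (2547 CPM per kb, mice between 2135 and 2972), followed by *Tff3*, a small trefoil peptide secreted with mucus (2486, between 1941 and 3192), and these neighbours overlapped. *Agr2*, a disulfide isomerase needed for mucin folding (1057 CPM per kb), *Clca1*, a secreted metalloprotease of mucus (1051), and *Muc13* (1039) came next and overlapped with each other. *Muc2* itself reached 373 CPM per kb and *Fcgbp*, the IgG Fc-binding protein of mucus, reached 308 CPM per kb. *Spdef*, the transcription factor of goblet cell maturation, was at 23.9 CPM per kb, and *Muc4* and *Muc1* were lowest, at 6.62 and 5.98 CPM per kb. The same 5 genes had the highest means in both treated groups. In WT CAC mice *Clca1* (460 to 601 CPM per kb) lay below *Agr2* (611 to 950) and below *Muc13* (971 to 1300) without overlap, whereas in *Cldn2*TG CAC mice *Clca1* (723 to 1393) overlapped both again.

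**Figure D1:**
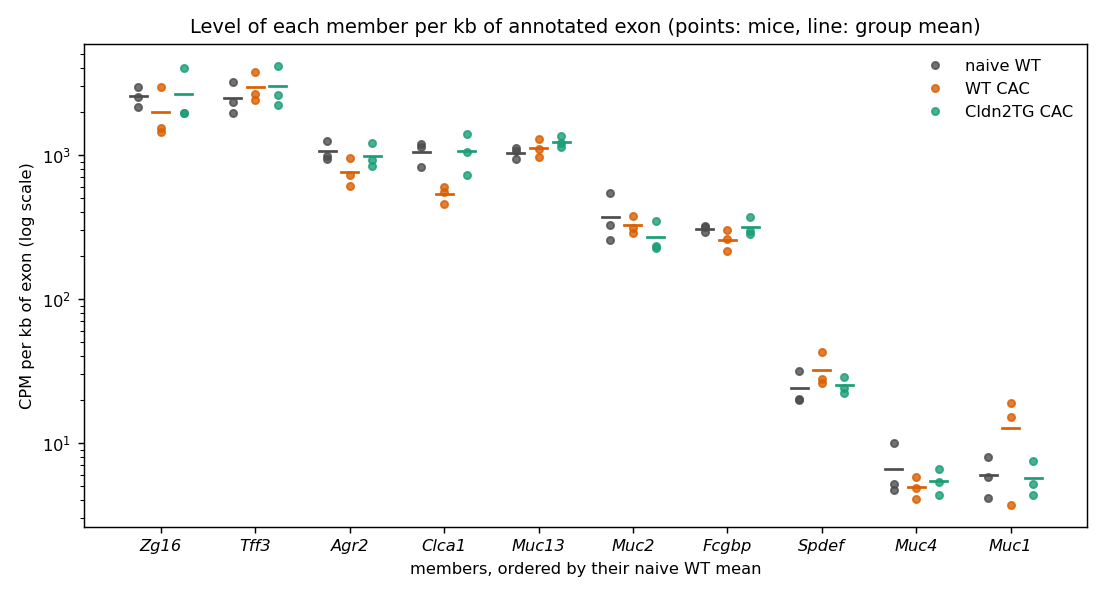
Level of each member in CPM per kb of annotated exon (log axis) in the 9 mice, with points for mice and short lines for group means, ordered by the naive WT mean. *Zg16* and *Tff3* lie highest, with naive WT means of 2547 and 2486, *Muc4* and *Muc1* lie lowest, with 6.62 and 5.98, and *Clca1* is the member whose WT CAC points sit apart from both other groups.

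Promoter sequence was read for the 7 members with an entry in the RefSeq promoter table (build GRCm38.p6). *Clca1*, *Tff3* and *Zg16* had none. Over the 250 bases before the start, 3 of the 7 genes held TATAAA on either strand (*Muc1*, *Muc2* and *Muc4*), against 12.4% of the 32851 promoters in the table. CAGCTG, which reads the same on both strands and is an E-box, was held by 2 of the 7 (*Fcgbp* and *Muc2*), against 13.0% of all promoters. TTTATG was held by 3 of the 7 (*Agr2*, *Muc13* and *Spdef*), against 10.8%, and CCGGAT by none, against 4.94%. Shown here are 3 of these upstream regions, those of the gel-forming mucin and its binding partner, whose groups overlapped in every comparison, and that of *Muc1*, the member with the widest range over the mice. They run 5′ to 3′ on the strand of the gene (the plus strand for all of them) and end at the base before the start, with TATAAA and CAGCTG in capitals. Only the exact letters were searched, so variants such as tatataa in *Fcgbp* and tataag in *Muc2*, both near the start, were not marked. A match describes these letters and is not evidence of a bound factor.
*Muc2*, chr7:141690090-141690339: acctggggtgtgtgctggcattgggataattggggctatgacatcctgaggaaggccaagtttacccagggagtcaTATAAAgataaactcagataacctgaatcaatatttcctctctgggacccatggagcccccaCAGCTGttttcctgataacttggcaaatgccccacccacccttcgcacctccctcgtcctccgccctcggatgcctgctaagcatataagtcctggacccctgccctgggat
*Fcgbp*, chr7:28070986-28071235: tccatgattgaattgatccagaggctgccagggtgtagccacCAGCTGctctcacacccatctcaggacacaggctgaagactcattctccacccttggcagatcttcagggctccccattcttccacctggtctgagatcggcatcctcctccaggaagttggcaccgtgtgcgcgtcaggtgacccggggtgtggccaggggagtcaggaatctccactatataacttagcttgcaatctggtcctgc
*Muc1*, chr3:89228806-89229055: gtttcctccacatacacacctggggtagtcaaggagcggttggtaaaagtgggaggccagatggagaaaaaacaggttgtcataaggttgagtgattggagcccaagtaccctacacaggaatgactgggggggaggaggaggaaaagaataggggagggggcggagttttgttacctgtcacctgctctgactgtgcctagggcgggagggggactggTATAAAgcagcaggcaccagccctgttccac

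The first base of TATAAA lies 31 bases before the start in *Muc1* and 174 bases before it in *Muc2*, and the CAGCTG lies 112 bases before the start in *Muc2* and 208 before it in *Fcgbp*.

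WT CAC against naive WT asks which mucus genes differ in the AOM-DSS-treated WT colon. Of the 10 members, *Clca1* alone passed the test, and it was lower in WT CAC. The other secreted members, *Muc2*, *Fcgbp*, *Tff3*, *Agr2* and *Zg16*, did not pass, nor did *Spdef* or the 3 transmembrane mucins. Across all 15437 genes tested in this comparison, 15.0% passed (8.04% higher and 6.92% lower in WT CAC), so 1 member of 10 is no more than the share among all genes. The mice of the groups did not overlap for 1 member of 10, against 38.0% of all genes tested. The median log2 fold change of the members was -0.22, against 0.021 over all genes. In these bulk samples fewer goblet cells and less RNA per goblet cell cannot be told apart.

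*Clca1* (chr3:145003817-145032776, minus strand, GRCm38) was measured at 4515, 4263 and 3130 CPM in the naive WT mice and at 2076, 2269 and 1736 CPM in the WT CAC mice. Every WT CAC mouse lay below every naive WT mouse. The means were 3969 ± 738 and 2027 ± 270 CPM (SD, n = 3 each), a 1.95-fold lower level in WT CAC (log2 fold change -0.96, SE 0.18, 95% CI -1.38 to -0.55, edgeR adjusted p = 0.0173). An exact two-sided permutation test gave p = 0.1, the smallest that 3 mice against 3 allow. The call was lost without naive WT mouse 1 (log2 fold change -0.87, adjusted p = 0.0631) and without naive WT mouse 2 (-0.92, adjusted p = 0.0787), and it was kept when each of the other 4 mice was left out.

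Several cell type markers moved in the same comparison. All 10 leukocyte markers had a positive fold change in WT CAC and 7 passed the test, with a summed level of 222 to 336 CPM in WT CAC against 58.2 to 139 CPM in naive WT. Of 8 markers of absorptive colonocytes, 2 passed as lower and 1 as higher in WT CAC, and 7 had a negative fold change. *Car4*, a carbonic anhydrase and 1 of the lower genes beside *Aqp8*, was at 1843, 1612 and 1198 CPM in naive WT and at 732, 458 and 287 CPM in WT CAC (log2 fold change -1.65, SE 0.33, adjusted p = 0.0223), a call kept in 2 of the 6 fits that left out a mouse. *Slc51a*, a bile acid transporter subunit, was higher (adjusted p = 0.00794), at 0.727 to 0.921 CPM against 0.0497 to 0.0860 CPM in naive WT. Of 6 distal Hox genes, *Hoxd10* was higher in WT CAC (0.99, adjusted p = 0.0392). Without naive WT mouse 1, the *Car4*, *Aqp8* and *Hoxd10* calls were lost (adjusted p = 0.0701, 0.110 and 0.0977), and 2 of the 7 leukocyte calls as well, those of *Csf1r* and *Ptprc*. None of the 10 epithelial markers passed edgeR's test, and 4 had an unadjusted p under 0.05, as did 5032 of all 15437 genes. DESeq2 called 2, *Cldn7* and *Krt18*. Their summed level was 21969 to 23105 CPM in naive WT and 21958 to 28684 CPM in WT CAC. Set against that sum, *Clca1* made up 13.6% to 20.6% of the epithelial marker level in naive WT and 7.24% to 9.42% in WT CAC, and with libraries scaled to the epithelial markers its log2 fold change was -1.10 (adjusted p = 0.00944). The part of leukocyte, colonocyte and Hox genes in the *Clca1* difference was otherwise not tested.

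The other 6 goblet cell genes can be read against *Clca1*. *Muc2*, the gel-forming mucin (chr7:141690340-141754693, plus strand), was at 1818, 2306 and 3855 CPM in naive WT and at 2686, 2233 and 2053 CPM in WT CAC. The WT CAC mice lay inside the naive WT range, which naive WT mouse 3 stretched (log2 fold change -0.19, 95% CI -0.81 to 0.43, adjusted p = 0.660), and the sign turned to 0.17 without that mouse. *Fcgbp* (chr7:28071236-28120862, plus strand) was at 3056, 3346 and 3291 CPM in naive WT and at 2723, 3148 and 2252 CPM in WT CAC. WT CAC mice 4 and 6 lay below every naive WT mouse, and the difference did not pass (log2 fold change -0.25, 95% CI -0.60 to 0.10, adjusted p = 0.293).

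*Agr2* (chr12:35992907-36004087, plus strand) was at 1274, 1216 and 1602 CPM in naive WT and at 1226, 788 and 937 CPM in WT CAC. Mouse 4 was the WT CAC mouse that reached into the naive WT range (log2 fold change -0.47, 95% CI -0.90 to -0.037, adjusted p = 0.126). Without mouse 4 *Agr2* passed the test (-0.65, adjusted p = 0.0227), and it also passed when libraries were scaled to the epithelial markers (-0.61, adjusted p = 0.0464). Over all genes, leaving out mouse 4 raised the calls from 2310 to 4080. *Zg16* (chr7:127050156-127087328, minus strand) was at 2684, 3736 and 3183 CPM in naive WT and at 3729, 1948 and 1802 CPM in WT CAC. Mouse 4 was again apart from mice 5 and 6, and *Zg16* did not pass with it (log2 fold change -0.36, adjusted p = 0.415) and passed without it (-0.76, adjusted p = 0.0118). The *Zg16* estimate was -0.21 without mouse 5 (adjusted p = 0.676) and -0.17 without mouse 6 (adjusted p = 0.736).

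*Tff3* (chr17:31125306-31129646, minus strand) was at 957, 1574 and 1147 CPM in naive WT and at 1857, 1313 and 1186 CPM in WT CAC, with overlapping mice (log2 fold change 0.25, 95% CI -0.28 to 0.78, adjusted p = 0.489). *Spdef* (chr17:27714352-27728951, minus strand) was at 43.9, 43.8 and 69.3 CPM in naive WT and at 93.4, 60.4 and 57.4 CPM in WT CAC (log2 fold change 0.43, 95% CI -0.13 to 0.997, adjusted p = 0.260). The mice overlapped for *Spdef* as well, with WT CAC mouse 4 the highest of all 9.

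Added up, the 7 goblet cell genes took 14348 to 16485 CPM in naive WT, 10023 to 14390 CPM in WT CAC and 12350 to 20311 CPM in *Cldn2*TG CAC. Relative to the summed epithelial markers the same genes stood at 65.3% to 71.3% in naive WT, 45.6% to 50.2% in WT CAC and 45.0% to 70.6% in *Cldn2*TG CAC. On this scale the WT CAC mice lay below all naive WT mice, and the *Cldn2*TG CAC mice ran from 45.0%, just under the WT CAC mice, to 70.6%, within the naive WT mice. These sums weigh the most abundant members most, and no test was made on them.

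Of the transmembrane mucins, *Muc13* (chr16:33794037-33819934, plus strand), a cell-surface mucin of the intestinal epithelium, was the steadiest member, with a 1.43-fold range over the 9 mice. It was at 3369, 3235 and 2867 CPM in naive WT and at 2949, 3949 and 3347 CPM in WT CAC (log2 fold change 0.12, 95% CI -0.23 to 0.47, adjusted p = 0.620). *Muc4* (chr16:32735886-32782391, plus strand) was at 55.1, 61.5 and 117 CPM in naive WT and at 57.1, 68.4 and 47.7 CPM in WT CAC (log2 fold change -0.42, 95% CI -1.11 to 0.26, adjusted p = 0.355). Without naive WT mouse 3 the *Muc4* estimate was -0.018 (adjusted p = 0.962). The groups overlapped for both genes. *Muc4* shares 627 exon bases with *Muc20* on the opposite strand and *Muc13* shares 184 with *Gm15657*. These partners had 172 and 140 reads over all mice, and the strand setting of the counting is not given in the sources used here.

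*Muc1* (chr3:89229057-89233381, plus strand), which elsewhere is known as a mucin raised in many carcinomas, had the widest range of all members, 5.13-fold over the mice. It was at 9.70, 13.7 and 18.7 CPM in naive WT and at 8.73, 35.4 and 44.8 CPM in WT CAC. WT CAC mice 5 and 6 lay above every other mouse of the study, while WT CAC mouse 4 was the lowest of all 9. With mouse 4 the difference did not pass (log2 fold change 1.08, SE 0.57, 95% CI -0.27 to 2.43, adjusted p = 0.236). Without mouse 4 *Muc1* was higher in WT CAC (1.52, adjusted p = 0.00610), where calls over all genes rose from 2310 to 4080. Without mouse 6 the *Muc1* estimate fell to 0.67 (adjusted p = 0.529).

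**Figure D2:**
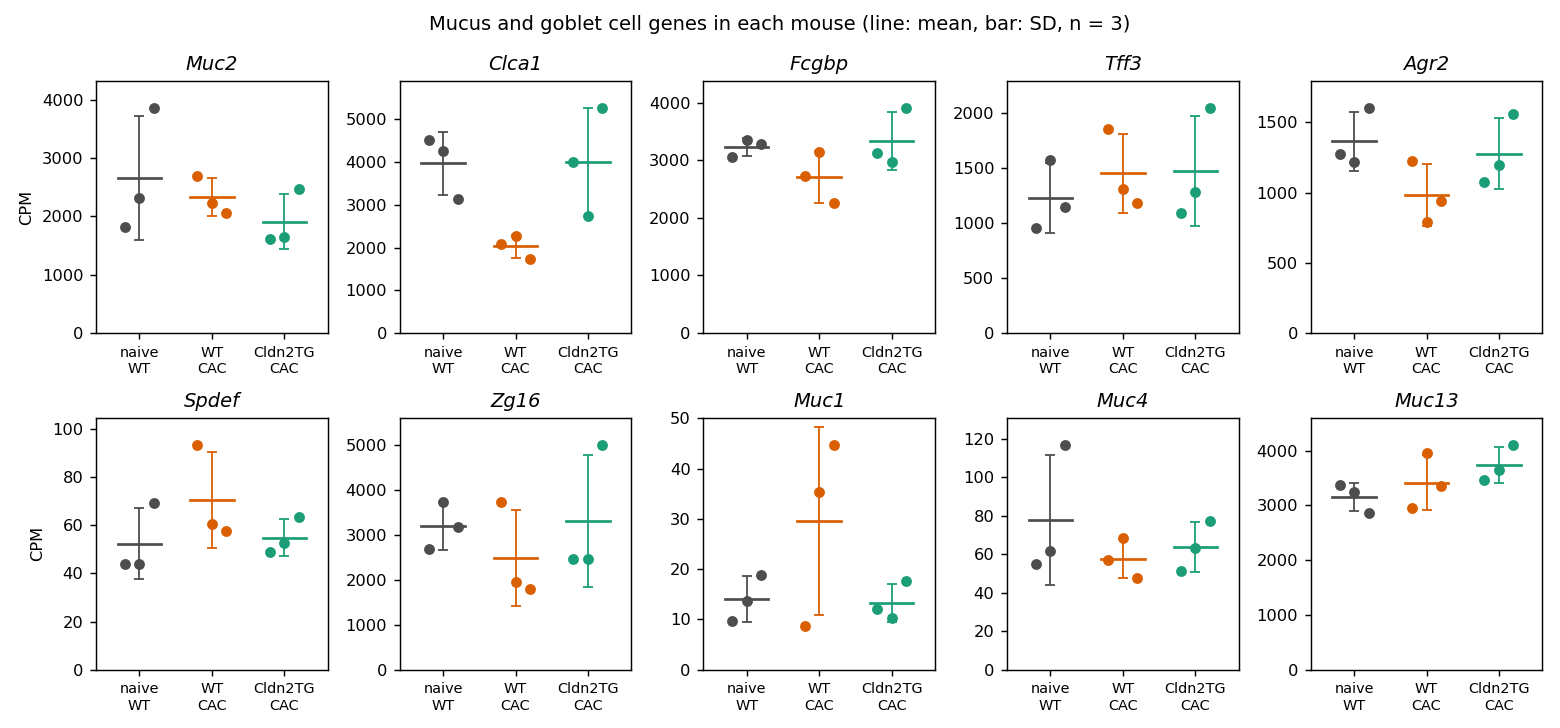
CPM of each of the 10 members in every mouse, with 1 panel per gene and an axis from 0; points are mice, lines are means and bars are SD (n = 3). *Clca1* shows 3 WT CAC mice between 1736 and 2269 CPM, below all mice of both other groups, and *Muc1* shows WT CAC mice 5 and 6 at 35.4 and 44.8 CPM, above all other mice.

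*Cldn2*TG CAC against WT CAC asks which mucus genes differ with the transgene among treated mice. *Clca1* alone of the 10 members passed again, here higher in *Cldn2*TG CAC. Of the 14888 genes tested, 9.54% passed (2.19% higher and 7.35% lower in *Cldn2*TG CAC), so that 1 member of 10 is again near the share among all genes. The mice did not overlap for 1 member of 10, against 28.0% of all genes tested. The members' median log2 fold change was 0.13, against 0.0085 over all genes. Both comparisons with WT CAC use the same 3 WT CAC mice, so a low value there gives opposite signs in both.

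*Clca1* stood at 3990, 2730 and 5262 CPM in the *Cldn2*TG CAC mice. Each of these values lay above the WT CAC mice (1736 to 2269 CPM), and they spread more widely than the naive WT mice did. The mean was 3994 ± 1266 CPM (SD, n = 3), which is 1.97-fold that of WT CAC (log2 fold change 0.98, SE 0.24, 95% CI 0.44 to 1.52, edgeR adjusted p = 0.0372, exact permutation p = 0.1). This call passed without WT CAC mouse 4 only. It was lost without mouse 5 (adjusted p = 0.0791), mouse 6 (0.107), mouse 7 (0.111), mouse 8 (0.0520) and mouse 9 (0.127), with log2 fold changes between 0.73 and 1.20. The leukocyte markers moved here as well, with 8 of 10 lower in *Cldn2*TG CAC and a summed level of 40.5 to 80.3 CPM against 222 to 336 CPM. Of the 8 colonocyte markers 2, *Car4* and *Aqp8*, were higher and 1, *Slc51a*, was lower (adjusted p = 0.00999). *Car4* was at 1767, 1680 and 2060 CPM in *Cldn2*TG CAC, above the 287 to 732 CPM of WT CAC (log2 fold change 1.90, SE 0.31, adjusted p = 0.0131), and 3 of 11 muscle and stroma markers were lower. None of the 10 epithelial markers passed edgeR's test (2 at an unadjusted p under 0.05, as were 3498 of all 14888 genes). DESeq2 called 1, *Cdx1*. With libraries scaled to them the log2 fold change of *Clca1* was 0.87 (adjusted p = 0.0297). The part of the other markers was not tested.

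Among the remaining secreted genes, *Muc2* was at 1619, 1653 and 2459 CPM in *Cldn2*TG CAC and overlapped WT CAC (log2 fold change -0.28, 95% CI -0.73 to 0.16, adjusted p = 0.460). *Fcgbp* was at 3125, 2968 and 3909 CPM (0.30, 95% CI -0.11 to 0.70, adjusted p = 0.377) and *Agr2* at 1073, 1199 and 1560 CPM (0.38, 95% CI -0.081 to 0.83, adjusted p = 0.317). *Zg16* was at 2472, 2468 and 5012 CPM, with mouse 9 far above the others, and its interval was wide (0.41, 95% CI -0.47 to 1.30, adjusted p = 0.605). None of these passed, although the point estimates of *Fcgbp*, *Agr2* and *Zg16* had the sign of *Clca1* and that of *Muc2* did not.

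*Tff3* was at 1094, 1279 and 2045 CPM in *Cldn2*TG CAC (log2 fold change 0.021, 95% CI -0.58 to 0.62, adjusted p = 0.979), with a sign that depended on the scaling. *Spdef* was at 48.8, 52.5 and 63.3 CPM (-0.36, 95% CI -0.82 to 0.097, adjusted p = 0.340). *Muc1* was at 12.2, 10.3 and 17.6 CPM, inside the range of WT CAC because of mouse 4 (-1.16, SE 0.57, 95% CI -2.51 to 0.20, adjusted p = 0.291). It was lower without that mouse (-1.59, adjusted p = 0.00128), where calls over all genes rose from 1421 to 2894. Without mouse 6 the *Muc1* estimate was -0.72 (adjusted p = 0.601). *Muc4* was at 51.3, 63.1 and 77.1 CPM (0.14, adjusted p = 0.751) and *Muc13* at 3471, 3649 and 4107 CPM (0.13, adjusted p = 0.723). The groups overlapped for all of these genes.

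*Cldn2*TG CAC against naive WT sets the treated transgenic colon beside the untreated WT colon. None of the 10 members passed edgeR's test and none passed with DESeq2. *Muc13* was the 1 member with an unadjusted p under 0.05, which 3896 of all 15013 genes reached. It was also the 1 member without overlap, since all *Cldn2*TG CAC mice (3471 to 4107 CPM) lay above all naive WT mice (2867 to 3369 CPM; log2 fold change 0.25, 95% CI 0.022 to 0.48, adjusted p = 0.155). Of the 15013 genes tested, 10.0% passed (3.92% higher and 6.07% lower in *Cldn2*TG CAC) and 31.4% did not overlap. The members' median log2 fold change was 0.034, against 0.0023 over all genes. *Clca1* had nearly equal means, 3994 and 3969 CPM (log2 fold change 0.016, 95% CI -0.57 to 0.61, adjusted p = 0.976). *Muc2* had the lowest estimate (-0.47, 95% CI -1.26 to 0.32, adjusted p = 0.417), which was -0.10 without naive WT mouse 3 (adjusted p = 0.829). The intervals of *Muc2*, *Clca1*, *Tff3*, *Zg16*, *Muc1* and *Muc4* reached past 0.5 in at least 1 direction, so these data do not exclude differences of that size in these genes. Of the markers, 4 of 11 muscle and stroma genes were lower in *Cldn2*TG CAC (summed level 1184 to 1620 CPM against 2245 to 4351 CPM) and 2 of 10 epithelial genes, *Krt8* and *Cldn7*, were higher, with *Cldn7* kept in 0 and *Krt8* in 1 of the 6 fits that left out a mouse. Of the 6 distal Hox genes, *Hoxd10*, *Hoxd11* and *Hoxd13* were higher in *Cldn2*TG CAC (0.81, 0.83 and 0.63 on the log2 scale), kept in 3, 5 and 6 of those fits. Their part in the values above was not tested.

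**Figure D3:**
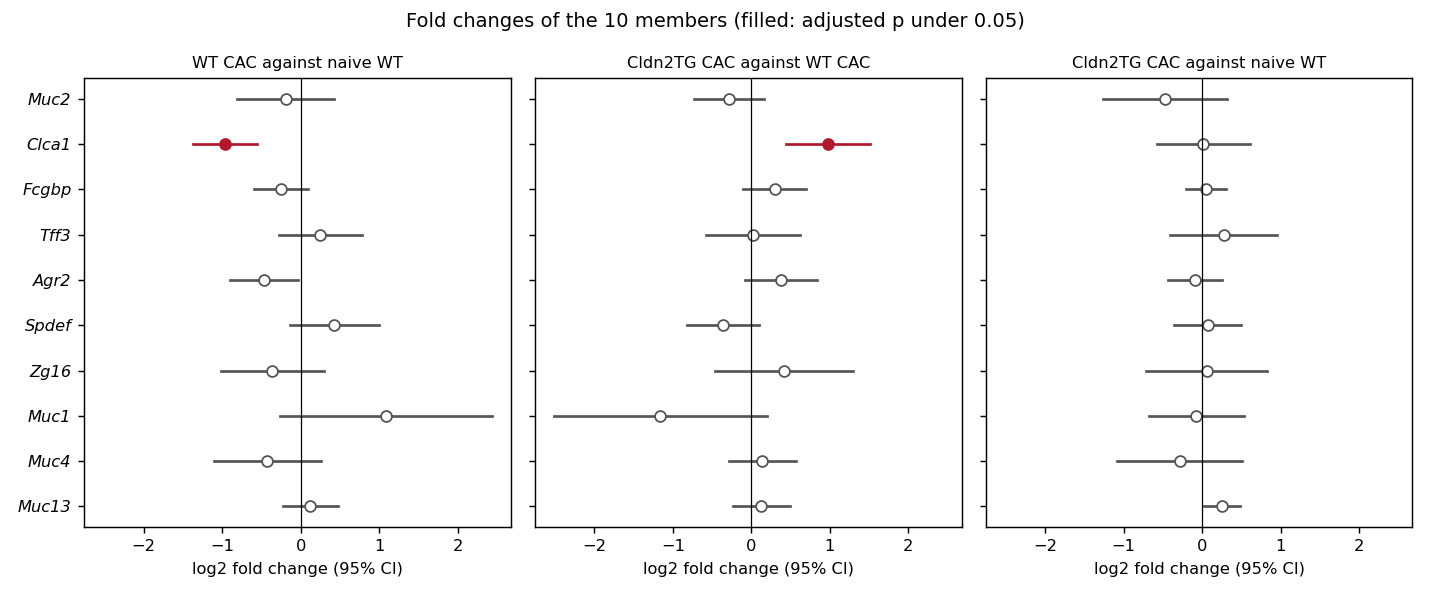
Log2 fold change of each member with its 95% CI (edgeR, 3 mice per group) in the 3 comparisons; filled points passed at an adjusted p under 0.05. *Clca1* is filled on the negative side in WT CAC against naive WT (-0.96) and on the positive side in *Cldn2*TG CAC against WT CAC (0.98). No point is filled in *Cldn2*TG CAC against naive WT.

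The members also differed in which mouse stood out. *Cldn2*TG CAC mouse 9 held the highest level of 5 members, *Clca1*, *Fcgbp*, *Tff3*, *Zg16* and *Muc13*, and naive WT mouse 3 that of *Muc2*, *Agr2* and *Muc4*. WT CAC mouse 6 held the lowest level of 4 members, *Clca1*, *Fcgbp*, *Zg16* and *Muc4*, and the highest level of *Muc1*. Within the naive WT group *Fcgbp* varied least, with a coefficient of variation of 4.78%, and *Muc4* and *Muc2* varied most, with 43.6% and 40.0%. Among all genes with a mean of at least 1 CPM, those nearest to *Clca1* in log2 CPM over the 9 mice, each centred on its own mean, were *Ces2c*, a carboxylesterase (root mean square difference 0.178), *Gm11695* (0.201) and *Xpr1*, a phosphate exporter (0.202). *Clca1* itself deviated from its mean by 0.526 on this scale. *Ces2c* was at 137, 148 and 93.0 CPM in naive WT, at 75.8, 76.8 and 46.8 CPM in WT CAC and at 159, 108 and 169 CPM in *Cldn2*TG CAC, so that it too was low in the WT CAC mice.

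Further genes of the mucus pathway were read from 5 lists, namely goblet lineage regulators, other mucins, other secreted proteins, mucin glycosylation, and mucin folding, secretion and processing. They were chosen with earlier results of these data known, so counts from them are not an independent test. The lists held 77 genes of the table, of which 69 had enough reads for the test of WT CAC against naive WT. There 20 of 69 passed, 8 higher and 12 lower, against 15.0% of all genes. In *Cldn2*TG CAC against WT CAC 11 of 69 passed (7 higher and 4 lower, against 9.54%), and in *Cldn2*TG CAC against naive WT 7 of 68 did (4 higher and 3 lower, against 10.0%). With libraries scaled to the epithelial markers the first split was 2 higher and 16 lower and the last was 0 higher and 13 lower. The counts also moved with single mice, from 4 (without naive WT mouse 2) to 28 (without WT CAC mouse 4) in the first comparison. They moved from 1 (without *Cldn2*TG CAC mouse 8) to 23 (without WT CAC mouse 4) in the second and from 2 (without naive WT mouse 3) to 7 (without naive WT mouse 1) in the third. Calls kept with every mouse left out in turn were those of *Foxa2*, *Cftr*, *Nlrp6* and *Muc6* in WT CAC against naive WT and of *Capn8* in both comparisons of *Cldn2*TG CAC, while every other call in these lists was lost without at least 1 mouse. Without naive WT mouse 1, the calls of *Galnt7*, *Scin* and *Pdia5* in the first comparison were also kept, and those of *Creb3l1*, *Hes1*, *Foxa3*, *Dll4*, *Clca4b*, *Itln1*, *Dmbt1*, *Spink4*, *B4galnt3*, *St3gal4*, *Fut4*, *Tgm3* and *Capn8* were lost, with the same sign and adjusted p-values of 0.0506 to 0.133. For *Cldn2*TG CAC against naive WT, those of *Foxa2* (adjusted p = 0.109) and *Foxa3* (0.0712) were lost without mouse 1. Some leukocyte and colonocyte markers passed in both comparisons that use the WT CAC mice, and some stroma markers in both that use the *Cldn2*TG CAC mice. Their part in the changes of these lists was not tested.

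Lineage regulators moved in both directions in WT CAC. Of 11 genes, 3 were lower and 2 higher than in naive WT, against 6.92% and 8.04% of all genes, with a list median of -0.28. The count of 5 was 3 with epithelial scaling, 1 without naive WT mouse 1, 2 or 3, 3 without WT CAC mouse 6 and 4 to 6 without WT CAC mouse 5 or 4. *Foxa2*, a forkhead transcription factor of the secretory epithelium, was at 81.9, 64.8 and 66.8 CPM in naive WT, at 34.0, 27.6 and 27.4 CPM in WT CAC and at 52.9, 52.9 and 52.8 CPM in *Cldn2*TG CAC. The 3 groups did not overlap for this gene. It was lower in WT CAC than in naive WT (log2 fold change -1.26, SE 0.14, adjusted p = 0.00492), a call kept with each mouse left out. It was higher in *Cldn2*TG CAC than in WT CAC (0.83, SE 0.13, adjusted p = 0.00957) and still lower than in naive WT (-0.42, SE 0.11, adjusted p = 0.0360). The second call was lost without mouse 8 or 9, and the third held only when naive WT mouse 2 was left out, and not when any other of its mice was.

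*Creb3l1*, a membrane-tethered transcription factor of secretory cells, was at 386, 412 and 417 CPM in naive WT and at 248, 179 and 138 CPM in WT CAC (-1.10, SE 0.20, adjusted p = 0.0160). In *Cldn2*TG CAC it was at 318, 310 and 352 CPM, higher than in WT CAC (0.79, SE 0.20, adjusted p = 0.0424), although this call was lost with library-size scaling (adjusted p = 0.0514), upper-quartile factors (0.0522) and a minimum of 10 counts in every mouse (0.0572). *Hes1*, a Notch target that opposes secretory fate, was lower in WT CAC (67.9 to 87.6 CPM against 115 to 131 CPM, -0.65, adjusted p = 0.0184).

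*Foxa3*, known to promote goblet cell differentiation, went the other way. It was at 37.4, 48.8 and 40.5 CPM in naive WT, at 65.2, 56.4 and 86.1 CPM in WT CAC and at 68.4, 53.9 and 82.4 CPM in *Cldn2*TG CAC. Both treated groups were higher than naive WT (0.72, adjusted p = 0.0350, and 0.70, adjusted p = 0.0236). *Dll4*, a Notch ligand, was likewise higher in WT CAC (0.62, adjusted p = 0.0283) and in *Cldn2*TG CAC (0.72, adjusted p = 0.0105), and *Dll1*, a Notch ligand of secretory progenitors, was higher in *Cldn2*TG CAC than in naive WT (0.58, adjusted p = 0.0384). All calls of these 3 genes were lost when libraries were scaled to the epithelial markers, with adjusted p-values of 0.0735 to 0.242, and the *Dll1* call held under 5 of the 10 alternatives that kept every mouse. *Klf4*, the regulator with the highest level per kb, passed in no comparison, nor did *Atoh1*, the factor that sets secretory fate, at 43.3 to 78.0 CPM over the 9 mice. *Atoh1* was picked for mention after its values were seen.

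Of 21 genes of mucin folding, secretion and processing, 5 were lower and 1 was higher in WT CAC than in naive WT, against 6.92% and 8.04% of all genes, and 2 (without naive WT mouse 2) to 7 (without WT CAC mouse 4) passed when 1 mouse was left out. *Cftr*, the chloride and bicarbonate channel that helps mucin unfold, was at 149, 132 and 139 CPM in naive WT, at 65.0, 50.6 and 40.1 CPM in WT CAC and at 142, 136 and 112 CPM in *Cldn2*TG CAC. The WT CAC mice lay below both other groups (-1.43, SE 0.17, adjusted p = 0.00633 against naive WT, and 1.32, SE 0.19, adjusted p = 0.00820 for *Cldn2*TG CAC against WT CAC). *Nlrp6*, a sensor known for its part in mucus granule release, was at 310, 333 and 317 CPM in naive WT, at 149, 130 and 95.1 CPM in WT CAC and at 251, 297 and 212 CPM in *Cldn2*TG CAC. Its differences were of like size (-1.35, SE 0.16, adjusted p = 0.00664, and 1.02, SE 0.19, adjusted p = 0.0161). For *Cftr* and *Nlrp6* the call in WT CAC against naive WT was kept with every mouse left out in turn.

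*Scin*, an actin-severing protein, was at 154 to 175 CPM in naive WT and at 56.6 to 91.8 CPM in WT CAC (-1.10, adjusted p = 0.0116), and it was higher in *Cldn2*TG CAC (0.85, adjusted p = 0.0313). *Pdia5*, a disulfide isomerase, was lower than naive WT in WT CAC (-0.82, adjusted p = 0.00822) and in *Cldn2*TG CAC (-0.47, adjusted p = 0.0220). *Tgm3*, a transglutaminase that cross-links mucus and the gene of this list with the highest level per kb, was at 3224, 2592 and 1911 CPM in naive WT and at 1084, 598 and 333 CPM in WT CAC (-1.94, SE 0.42, adjusted p = 0.0281). It was at 2106, 1971 and 1495 CPM in *Cldn2*TG CAC, above all WT CAC mice, without passing (1.47, SE 0.40, adjusted p = 0.0657).

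*Capn8*, a calpain protease of mucus-producing cells of the stomach, had a pattern of its own within the list. It was at 14.4, 14.2 and 13.9 CPM in naive WT, at 22.3, 20.6 and 18.1 CPM in WT CAC and at 6.84, 7.24 and 8.12 CPM in *Cldn2*TG CAC. It was higher in WT CAC (0.53, SE 0.13, adjusted p = 0.0351) and lower in *Cldn2*TG CAC than in WT CAC (-1.46, SE 0.17, adjusted p = 0.00583) and than in naive WT (-0.93, SE 0.15, adjusted p = 0.00519). The first of these calls was lost in 4 of 6 fits that left out a mouse, and both others were kept in all 6.

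Of 22 tested genes of mucin glycosylation, 4 were lower in WT CAC than in naive WT and 0 were higher, with a list median of -0.21. Over all genes 15.0% passed, and 6.92% passed as lower. The count of 4 was 9 with DESeq2, 8 with epithelial scaling and 7 with all 9 mice in 1 fit, and it was 0 to 8 when 1 mouse was left out (0 without naive WT mouse 2 or 3, 8 without WT CAC mouse 4). *Galnt7*, which adds the first sugars of O-glycans, was at 194, 232 and 236 CPM in naive WT and at 134, 139 and 109 CPM in WT CAC (-0.79, SE 0.14, adjusted p = 0.0145). *B4galnt3*, a further glycosyltransferase, had a log2 fold change of -0.99 (adjusted p = 0.0410), *St3gal4*, a sialyltransferase, one of -0.65 (adjusted p = 0.0385) and *Fut4*, a fucosyltransferase, one of -0.56 (adjusted p = 0.0316). Higher in *Cldn2*TG CAC than in WT CAC were 2 of 22 genes, against 2.19% of all genes, with list counts of 6 by DESeq2, 5 with all 9 mice in 1 fit, 1 with epithelial scaling and 0 (without mouse 8 or 9) to 6 (without mouse 4) when 1 mouse was left out. *B3gnt7*, a glycan-extending enzyme, was at 1227, 1320 and 1628 CPM against 927, 718 and 485 CPM (0.97, SE 0.23, adjusted p = 0.0358). It was highest of the list per kb over the 3 groups together, but below *St6galnac6* in WT CAC (172 against 213). *St3gal6*, another sialyltransferase, was at 296, 308 and 309 CPM against 185, 199 and 189 CPM (0.67, SE 0.11, adjusted p = 0.0115). With 1 mouse left out, the *B3gnt7* call was kept in 1 of 6 fits and the *St3gal6* call in 4 of 6. Against naive WT, in *Cldn2*TG CAC no glycosylation gene passed edgeR's test, and 5 had an unadjusted p under 0.05, as did 3896 of all 15013 genes; DESeq2 called 2, *Galnt7* as lower and *St3gal6* as higher.

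**Figure D4:**
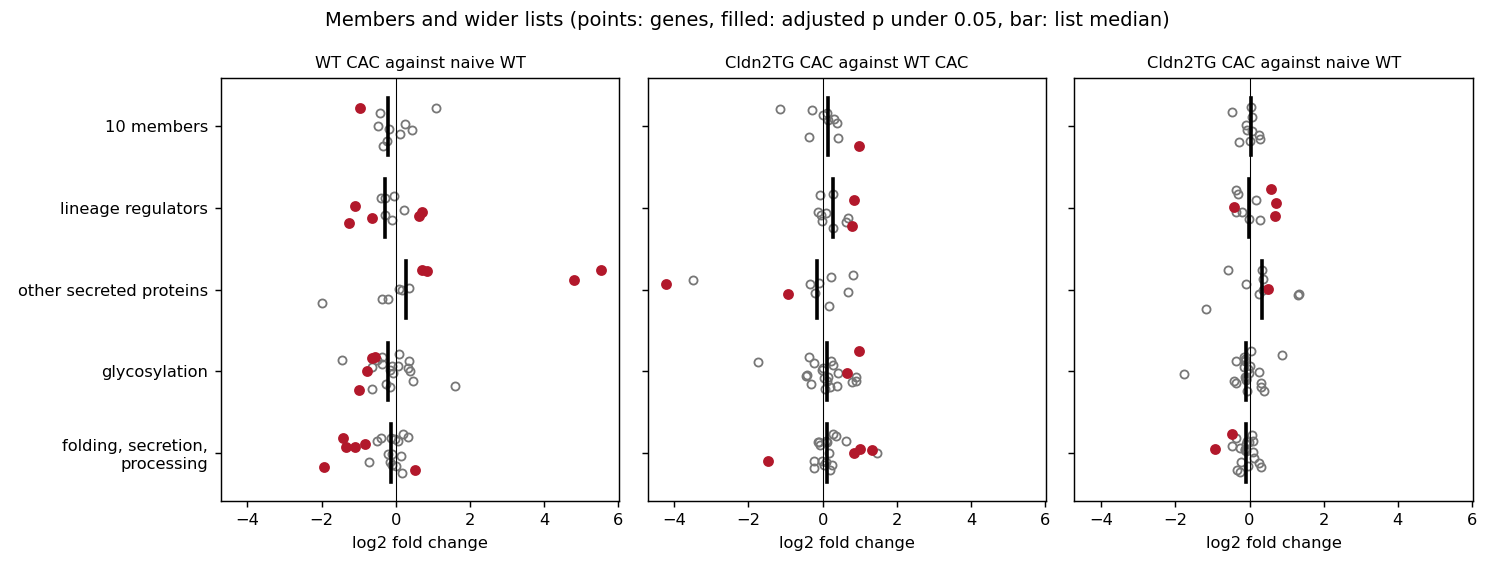
Log2 fold change of the 10 members and of the tested genes of 4 wider lists in the 3 comparisons, with 1 point per gene, filled at an adjusted p under 0.05, and a bar at each list's median. In WT CAC against naive WT 5 of the 6 filled points of folding, secretion and processing and all 4 of glycosylation lie left of 0, and the members' medians are -0.22, 0.13 and 0.034.

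Other secreted goblet and mucus proteins were higher in WT CAC where they passed, 4 of 10 tested, against 8.04% of all genes. The count was 1 with epithelial scaling, 2 without a filter, 0 without naive WT mouse 1 or 2, 1 without mouse 3 and 2 to 3 without a WT CAC mouse. Of the 10 tested, 7 had a positive and 3 a negative log2 fold change, the lowest at -1.99. *Retnlb* was at 16.6 to 44.3 CPM in naive WT and at no more than 14.1 CPM in any WT CAC mouse. It was thus lower without overlap, but it did not pass. *Retnlb* was picked for mention after its values were seen. *Clca4b*, of the same gene family as *Clca1*, was at 19.9, 7.96 and 32.9 CPM in naive WT, at 196, 1284 and 1318 CPM in WT CAC and at 34.2, 56.0 and 59.6 CPM in *Cldn2*TG CAC. It rose in WT CAC (5.53, SE 0.92, adjusted p = 0.0170), where *Clca1* fell, and was lower in *Cldn2*TG CAC than in WT CAC (-4.23, SE 0.75, adjusted p = 0.0212). Reads shared between *Clca* paralogs could be split by the counting, so levels of single family members are uncertain. *Dmbt1*, a scavenger glycoprotein of mucosal surfaces, was at 3477, 3381 and 3466 CPM in naive WT, at 4066, 7582 and 6709 CPM in WT CAC and at 3045, 3235 and 3352 CPM in *Cldn2*TG CAC (0.84, SE 0.23, adjusted p = 0.0443, and -0.93, SE 0.23, adjusted p = 0.0356).

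*Itln1*, a lectin that binds microbial sugars, was at 2.10 to 3.70 CPM in naive WT and at 11.4, 29.9 and 211 CPM in WT CAC (4.81, SE 1.16, adjusted p = 0.0401), with WT CAC mouse 6 far above the rest. *Spink4*, a goblet cell peptide, was at 644 to 784 CPM in naive WT and at 843 to 1441 CPM in WT CAC (0.71, adjusted p = 0.0475), and with *Fut4* it was picked for mention after its values were seen. *Reg4*, a lectin of deep crypt secretory cells, was higher in *Cldn2*TG CAC than in naive WT (772, 769 and 722 CPM against 650, 524 and 448 CPM, 0.49, adjusted p = 0.0369). *Lypd8*, an antibacterial protein at the colonic surface and the highest of the list per kb, ranged from 15250 to 24140 CPM over the mice and passed in no comparison. The *Dmbt1*, *Itln1*, *Spink4* and *Reg4* calls against naive WT were lost when libraries were scaled to the epithelial markers (adjusted p = 0.105, 0.0791, 0.107 and 0.287), as was that of *Clca4b* between the treated groups (0.0562). Of the 10 alternatives that kept every mouse, the *Itln1* call held in 6, the *Reg4* call in 7, the *Spink4* call in 8 and the *Dmbt1* call in 9. *Lyz1* and *Mmp7*, genes of Paneth cells, which the colon normally lacks, were higher beside *Itln1* in WT CAC, with *Lyz1* at 2.80 to 3.78 CPM in naive WT, 131 to 1012 CPM in WT CAC and 8.71 to 17.7 CPM in *Cldn2*TG CAC. *Lyz1* was also higher in *Cldn2*TG CAC than in naive WT (2.04, adjusted p = 0.00227), kept in all 6 fits that left out a mouse. Of the same 8 markers of other secretory cells, *Dclk1* and *Trpm5*, genes of tuft cells, were lower in WT CAC than in naive WT (-1.41, adjusted p = 0.0138, and -1.25, adjusted p = 0.0183), and *Dclk1* was also lower in *Cldn2*TG CAC (-0.88, adjusted p = 0.0437). Whether *Lyz1*, *Mmp7* and *Itln1* come from the same cells was not tested.

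Among other mucins, *Muc5ac*, a secreted mucin of the gastric surface, had 2 reads and *Muc5b*, a secreted airway mucin, had 1 read over all 9 mice. *Muc6*, a gel-forming mucin of gastric glands, had 0 reads in each naive WT mouse, 32, 62 and 68 reads in the WT CAC mice and 2, 1 and 1 reads in the *Cldn2*TG CAC mice. Set against a limit of 3 reads per library, its level in WT CAC was at least 21.0-fold higher than in naive WT (adjusted p = 0.00821). Against *Cldn2*TG CAC the ratio of summed reads was 34.2, with an exact 95% interval of 13.1 to 127 that covers counting error only (adjusted p = 0.00661). At 1.66 to 4.62 CPM *Muc6* remained a rare transcript in WT CAC. *Muc3*, the transmembrane mucin with the highest level per kb of this list, was at 3169 to 3936 CPM in naive WT, 1899 to 5023 CPM in WT CAC and 3722 to 4686 CPM in *Cldn2*TG CAC and passed in no comparison. Reads of *Muc3* and its paralog *Muc3a* may be split between them.

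**Figure D5:**
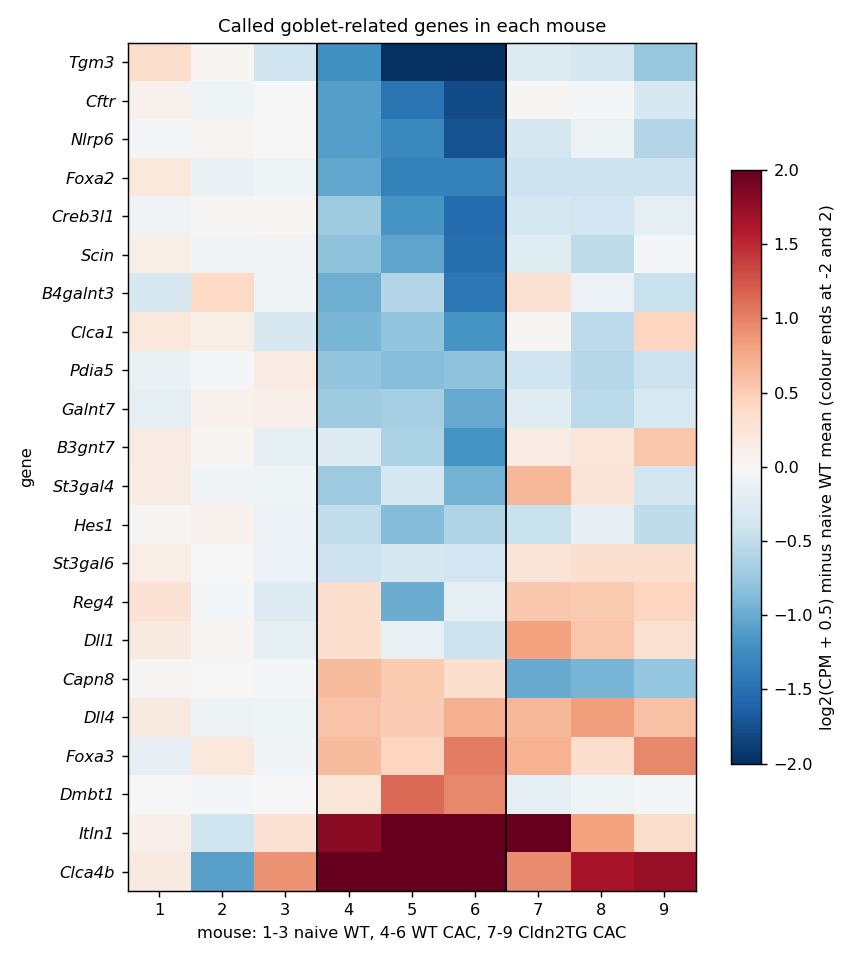
Log2(CPM + 0.5) of *Clca1* and of the named wider-list genes that passed in at least 1 comparison, in each mouse minus the naive WT mean of the gene, ordered by the WT CAC mean; colours end at -2 and 2, and *Muc6* is left out because it had no read in naive WT. WT CAC mice 4 to 6 are blue from *Tgm3* down to *St3gal6*, including *Clca1*, and red from *Capn8* to *Clca4b*, while *Cldn2*TG CAC mice 7 to 9 are blue for *Capn8* and red for *Dll4* and *Foxa3*.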

How the data were processed

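Total RNA from the colon of 9 mice was sequenced, and the authors deposited raw counts of reads per gene (GRCm38, counted with featureCounts of Subread) for 2 lanes of each library. The study's methods name TopHat2 as the aligner and the submitters' processing notes name HISAT2. Versions and strand setting are not given in the sources used here. The lanes were summed to 1 count per gene and mouse. Groups were taken from the sample labels, with 3 mice each.

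The 3 pairwise comparisons were each fitted on their 6 mice with edgeR's robust quasi-likelihood test (edgeR 4.0.16, R 4.3.3), with TMM factors, filterByExpr (minimum count 10, minimum total 15) and Benjamini-Hochberg adjustment across the genes kept, at a threshold of 0.05. SEs and 95% intervals come from that fit. Exact two-sided permutation tests used log2(CPM + 0.5). DESeq2 1.42.0, other scalings, filters, single lanes, 1 fit of all 9 mice, and leaving out each mouse were alternatives. The fitting code was tested on simulated data. The labels number the mice 1 to 9 with no number shared between groups, so no block was fitted.

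The members and lists were chosen with earlier results of these data known. Named were all members and, from each wider list and comparison, up to 3 called genes in each direction with the largest change and a mean of at least 1 CPM, the list's highest gene per kb, and the 3 genes nearest to a called member. Intervals on reads cover counting error only. Promoters are those of RefSeq (GRCm38.p6).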

Additional observations from a re-analysis of the deposited data

How the results depend on the processing

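*Clca1* passed the test under all 10 alternatives that kept every mouse, in each of its called comparisons, WT CAC against naive WT first and *Cldn2*TG CAC against WT CAC next, with adjusted p-values over all alternatives of 5.90e-06 to 0.0787 and 0.000680 to 0.127. The number of members called was 2 with epithelial scaling in WT CAC against naive WT, where 2044 of all 15437 genes passed. Leaving out 1 mouse gave 0 to 4 members there and 0 to 2 for *Cldn2*TG CAC against WT CAC. The highest counts, 4 and 2, came without WT CAC mouse 4, where 4080 of 15872 and 2894 of 15109 genes passed. Signs of members that passed nowhere in a comparison were less stable. *Tff3* in *Cldn2*TG CAC against WT CAC was negative with library-size scaling (-0.090), upper-quartile factors (-0.018), epithelial scaling (-0.081), at least 10 counts in every mouse (-0.0042) and lane 2 alone (-0.016). Against naive WT, in *Cldn2*TG CAC, *Clca1*, *Fcgbp*, *Spdef* and *Zg16* were negative with library-size scaling (-0.10, -0.066, -0.050 and -0.067) and with epithelial scaling (-0.23, -0.19, -0.17 and -0.20). Those scalings moved the median of all genes to -0.11 and -0.23, and epithelial scaling moved it to -0.11 in WT CAC against naive WT.

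Leaving out 1 mouse turned signs within these ranges. In WT CAC against naive WT they were -0.41 to 0.17 for *Muc2* and -0.0013 to 0.22 for *Muc13*. In *Cldn2*TG CAC against WT CAC they were -0.29 to 0.24 for *Tff3*, -0.0066 to 0.82 for *Zg16* and -0.011 to 0.29 for *Muc4*. In *Cldn2*TG CAC against naive WT they were -0.24 to 0.22 for *Clca1*, -0.083 to 0.12 for *Fcgbp*, -0.045 to 0.49 for *Tff3*, -0.26 to 0.043 for *Agr2*, -0.046 to 0.33 for *Spdef*, -0.37 to 0.23 for *Zg16*, -0.33 to 0.19 for *Muc1* and -0.47 to 0.14 for *Muc4*.

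Over all genes, calls ran from 135 (without naive WT mouse 2) to 4080 (without WT CAC mouse 4) against 2310 in WT CAC against naive WT, from 58 (without *Cldn2*TG CAC mouse 8) to 2894 (without WT CAC mouse 4) against 1421 for *Cldn2*TG CAC against WT CAC, and lastly from 525 (without naive WT mouse 3) to 1383 (without *Cldn2*TG CAC mouse 7) against 1501 in *Cldn2*TG CAC against naive WT. The second count was 908 with at least 10 counts in every mouse and 2136 with all 9 mice in 1 fit. The last was 2567 without a filter and 445 with all 9 mice in 1 fit. Epithelial scaling gave 706 higher and 1338 lower genes in the first comparison against 1241 and 1069, and 123 higher and 1924 lower in the last against 589 and 912. Library-size scaling gave 276 and 1310 there, and in *Cldn2*TG CAC against WT CAC it gave 218 and 1294 against 326 and 1095. Calls in the wider lists numbered 26, 19 and 15 with DESeq2, 25, 16 and 3 with all 9 mice in 1 fit and 22 without a filter in the last comparison. With 3 mice a group the exact test cannot go below p = 0.1. The cause of these changes was not tested.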
